A study of Mus musculus with 8 samples.

Results

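The 10 genes described here are the 3 subunits of complement C1q (C1qa, C1qb, C1qc) and 7 genes used to identify macrophages (Mrc1, Maf, Csf1r, Marco, Timd4, Cd5l, Vcam1). They were taken by name: every probe set that the platform annotation assigns to 1 of these symbols alone was kept, which gave 22 of the 45037 probe sets tested and 10 of 18193 named genes. RNA came from fetal livers of C57/B6 mice, from which Lin-Sca+Kit+ haematopoietic stem cells were purified, with 1 mouse on each of 8 Affymetrix arrays. The groups were wild type (2 mice), ADAR1 +/- heterozygous (3 mice) and ADAR1 -/- null (3 mice). ADAR1 is the enzyme that changes adenosine to inosine in double-stranded RNA. The labels give neither an age nor the kind of ADAR1 allele. The 5 wild-type and heterozygous mice together are called controls.

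C1q is the recognition protein of the classical complement pathway. Its A, B and C chains assemble into 1 molecule that binds antibody complexes and dying cells, and it is made mainly by macrophages and related cells rather than by hepatocytes, the source of most other complement proteins. Fetal liver macrophages surround maturing red cell precursors in erythroblastic islands and take up the nuclei these cells expel. They depend on signalling through the CSF1 receptor and carry scavenger and phagocytic receptors such as those encoded by Mrc1, Marco and Timd4. Lineage-negative sorts such as this one normally use markers of mature myeloid cells among those selected against.

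Values below are deposited linear intensities per probe set, and differences are in log2 units with the limma standard error. Background on an array was taken as the highest of 27 probe sets for Bacillus transcripts and lay between 6.20 and 9.29. Adjusted p-values are limma's, adjusted by Benjamini and Hochberg over all 45037 probe sets, and a gene is said to have fallen or risen only below 0.05. Where every null array was at or below background, a fold is given as a lower bound: the control mean over the null mean with each null array raised to the lowest level counted as above background. Levels were not compared between probe sets, but sums over a list add them, so bright probe sets weigh most there. With 2 or 3 arrays a group, precision is limited throughout.

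The share of probe sets above background was 45.6% to 61.2% in control mice and 39.98% to 46.4% in null mice. The ratio of 3′ to 5′ Gapdh probe sets, a sign of how short the labelled RNA is, was 7.45 to 8.73 in null mice. It was 4.39 and 4.32 in wild type and 5.78, 4.78 and 8.996 in heterozygotes. Among controls only heterozygote 3 was as high as the null mice. The part of these differences in the results was not tested. Of 14 stem and progenitor markers measured, 8 were above background on every array, among them Kit and Cd34, and Procr was at or below it on every array. The brightest probe set of Adar, which encodes ADAR1, read 7.66 and 17.6 in wild type, 13.1, 16.1 and 9.89 in heterozygotes and 59.7, 144 and 176 in null mice. It was higher in null mice than in controls by 3.22 ± 0.41 (adjusted p = 0.0170). Where this probe set lies relative to the altered part of the gene is not stated in the labels, so it checks nothing about the genotypes.

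Some of these genes were at or near background in all null mice and measured above it in controls, and the others were low or overlapped in all groups. C1qb, C1qc, Csf1r, Mrc1 and Maf were lower in each of the 3 null mice than in each of the 5 controls. These are 5 of the 10 genes, against 4.95% of all 18193 genes. In Csf1r wild-type mouse 1 was below background too, at 6.87 against 6.82 in null mouse 3. The genes and lists were chosen with earlier results of these data known. This share and those below therefore describe the genes and test nothing. By probe set, 10 of 22 lay lower in every null mouse than in every control, against 4.30% of all probe sets, and 2 of 22 lay higher, against 3.89%. The only gene with the opposite order was Cd5l, 1 of 10 against 4.19% of all genes, and it stayed at or below background on all 8 arrays. C1qc, Mrc1 and Maf were above background on every control array and on no null array, a pattern found in 0.478% of all genes.

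**Figure D1:**
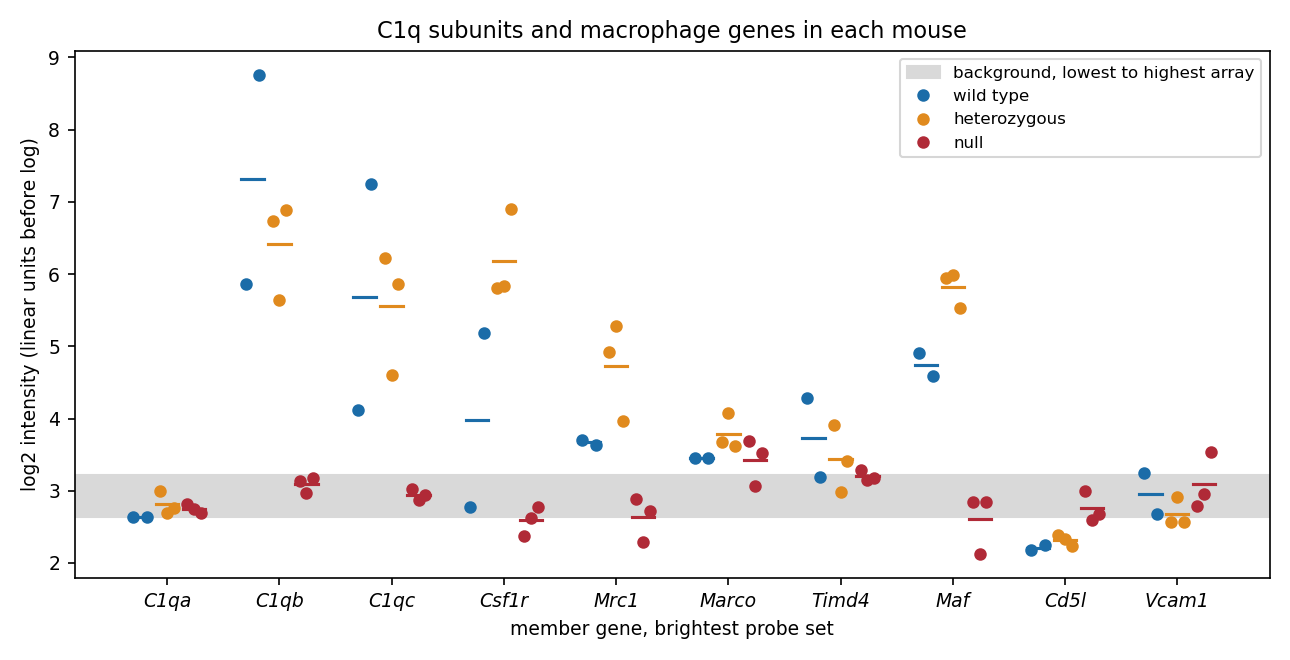
Log2 intensity (vertical axis) of the brightest probe set of each of the 10 genes, with 1 point per mouse and a bar at each group mean; the grey band spans the background of the 8 arrays. For C1qb, C1qc, Csf1r, Mrc1 and Maf the null mice lie in or below the band and below every control, whereas C1qa, Marco, Timd4, Cd5l and Vcam1 overlap or lie near the band in all groups.

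Only Maf passed the test after adjustment. It fell in null against wild type, as 1 of 10 genes where 0.126% of all genes fell, in null against heterozygous, again 1 of 10 where 0.313% fell, and in null against all controls, 1 of 10 where 0.379% fell. At an unadjusted p below 0.05, 4 of the 10 genes were lower in null than in wild type, against 5.91% of all genes. The same count was 5 of 10 against heterozygotes, where it was 7.88% of all genes, and 5 of 10 against all controls, where it was 7.98%. The median difference over the 10 genes was -0.79 against wild type, -1.22 against heterozygotes and -1.01 against all controls. Over all genes these medians were -0.00, 0.06 and 0.03. Comparisons of null with wild type, with heterozygotes and with all controls use the same 3 null arrays.

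The C1q subunits did not give the same picture on their probe sets. C1qb, the B chain, read 58.1 and 434 in the wild-type mice, 106, 50.03 and 119 in the heterozygotes, and 8.75, 7.79 and 9.09 in the null mice on its brightest probe set. All controls stood well above all null mice, of which 2 of 3 were just above background, and wild-type mouse 2 was the highest by a wide margin. On the log2 scale the means were 7.31 ± 2.05 (SD, n = 2), 6.42 ± 0.68 (SD, n = 3) and 3.09 ± 0.12 (SD, n = 3). The null level was 18.6-fold below wild type (-4.22 ± 0.81, adjusted p = 0.163), 10.1-fold below heterozygous (-3.33 ± 0.72, adjusted p = 0.164) and 12.9-fold below all controls (-3.69 ± 0.65, adjusted p = 0.0665). None of these passed, although only 2 of 18193 genes had a more negative difference from wild type. An exact permutation of the 8 arrays gave p = 0.0357, unadjusted and two-sided, which is the smallest that 3 against 5 arrays allow.

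The other C1qb probe sets had the same order of groups. The second read 37.7 and 310 in wild type, 73.0, 36.9 and 51.9 in heterozygotes and 16.7, 16.1 and 18.4 in null mice. Its null arrays were above background, and its difference from wild type was -2.67 ± 0.80 (adjusted p = 0.439). The third read 9.87 and 187 in wild type, 51.9, 10.2 and 6.89 in heterozygotes and 5.67, 5.07 and 6.48 in null mice. Here the null mice were all at background and at least 5.21-fold below wild type (-2.91 ± 1.31, adjusted p = 0.687), while 3 of 5 controls lay close to background themselves. The first 2 probe sets carry the maker's suffix for probes that can bind other transcripts, so part of their signal may not be C1qb, and the gap between groups was smaller on the second than on the first.

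C1qc, the C chain, read 17.4 and 152 in wild type, 74.99, 24.3 and 58.0 in heterozygotes and 8.13, 7.30 and 7.69 in null mice. Each null value was at or below background and each control was above it. C1qc was at least 6.22-fold lower than in wild type (-2.74 ± 0.89, adjusted p = 0.487), at least 5.72-fold lower than in heterozygotes (-2.62 ± 0.80, adjusted p = 0.321) and at least 5.92-fold lower than in all controls (-2.67 ± 0.67, adjusted p = 0.181). As for C1qb, wild-type mouse 2 was the highest and wild-type mouse 1 among the lowest of the controls. Without wild-type mouse 2 the differences from wild type were -2.77 for C1qb and -1.17 for C1qc. Without wild-type mouse 1 they were -5.67 and -4.31. Each of these compares null mice with 1 remaining wild-type mouse, so only the difference is given. The comparison of C1qb with all controls passed without wild-type mouse 2 (-3.19, adjusted p = 0.0140), and that with heterozygotes passed when null and heterozygous mice were fitted alone (adjusted p = 0.0322).

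C1qa, the A chain, gave no usable signal. Its single probe set read 6.23 and 6.20 in wild type, 7.95, 6.43 and 6.78 in heterozygotes and 7.06, 6.70 and 6.45 in null mice. It was above background on 2 of 8 arrays, both heterozygous, and the groups overlapped (null minus wild type 0.12 ± 0.14, adjusted p = 0.881). The median difference of the 3 subunits was -2.74 against wild type, -2.62 against heterozygotes and -2.67 against all controls, which in each case is the value of C1qc. In RefSeq's order on chromosome 4 the 3 genes lie side by side as C1qb, C1qc and C1qa. The next named gene on the far side of C1qa, Epha8, an ephrin receptor, was at or below background on all 8 arrays. Cdc42, a small GTPase further along, read 1795 and 1796 in wild type, 2206, 2360 and 1852 in heterozygotes and 734, 1447 and 1209 in null mice, with a difference of -0.72 ± 0.29 from wild type (adjusted p = 0.630). Zbtb40, between Epha8 and Cdc42, was like Cdc42 lower in every null mouse than in every control (-0.50 ± 0.36 from wild type, adjusted p = 0.808). In the neighbours Kdm1a, Tex46, Lactbl1 and Wnt4 null mice and controls overlapped.

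The sequences before the start sites of C1qb and C1qc are shown because these genes had the same order of groups, and that of Mrc1 because it is the other member with a RefSeq promoter whose null mice all lay below the controls. RefSeq (GRCm38.p6) gave a promoter for 6 of the 10 genes: C1qb, C1qc, Mrc1, Marco, Timd4 and Cd5l. Each line holds the 250 bases before the start, 5′ to 3′ on the gene's strand, at chr4:136886201-136886450 (minus) for C1qb, chr4:136892915-136893164 (minus) for C1qc and chr2:14229164-14229413 (plus) for Mrc1. Capitals mark matches, on either strand, to GAGGAA, the core bound by PU.1, a myeloid transcription factor encoded by Spi1, or to TGCTGA, a half-site of the element bound by Maf proteins.
C1qb: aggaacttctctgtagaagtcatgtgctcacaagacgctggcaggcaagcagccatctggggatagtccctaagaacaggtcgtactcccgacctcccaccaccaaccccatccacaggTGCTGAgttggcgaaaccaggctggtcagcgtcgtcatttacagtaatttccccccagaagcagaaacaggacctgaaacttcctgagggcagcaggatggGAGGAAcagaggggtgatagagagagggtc
C1qc: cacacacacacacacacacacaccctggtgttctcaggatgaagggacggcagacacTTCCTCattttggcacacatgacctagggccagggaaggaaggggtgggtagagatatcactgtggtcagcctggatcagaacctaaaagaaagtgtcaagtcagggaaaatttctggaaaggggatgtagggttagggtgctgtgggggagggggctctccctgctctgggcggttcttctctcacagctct
Mrc1: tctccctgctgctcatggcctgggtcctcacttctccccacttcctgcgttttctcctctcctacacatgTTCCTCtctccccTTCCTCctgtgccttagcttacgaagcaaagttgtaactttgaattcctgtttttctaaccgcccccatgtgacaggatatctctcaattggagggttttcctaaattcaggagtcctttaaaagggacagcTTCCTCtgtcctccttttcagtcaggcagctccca
The C1qb window holds 1 PU.1 core beginning 30 bases before the start and 1 Maf half-site 131 bases before it, both on the gene's strand. C1qc has 1 PU.1 core, 193 bases before the start on the reverse strand, and Mrc1 has 3, beginning 180, 167 and 35 bases before it on the reverse strand. Neither has a Maf half-site there. The motifs also occur in members whose null mice did not all lie below the controls. Marco has 1 PU.1 core, Timd4 has 2 Maf half-sites, and Cd5l has 1 PU.1 core and 2 Maf half-sites. Over the table's window of 300 bases, 250 before to 50 after the start, GAGGAA was found on either strand in 28.3% of 32851 promoters and in 5 of the 6 members'. TGCTGA was found in 19.5% of all promoters and in 3 of the 6. These 2 motifs share no overlap in the printed windows of C1qb, C1qc and Mrc1, and a match is a description of letters, not of binding.

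Maf, a transcription factor of the large Maf family that is expressed in macrophages, was the only member past the threshold. Its brightest probe set read 29.9 and 24.05 in wild type, 61.9, 63.2 and 46.2 in heterozygotes and 7.16, 4.37 and 7.22 in null mice. All null values were at or below background, all controls were above it, and heterozygotes exceeded wild type. Log2 means were 4.75 ± 0.22 (SD, n = 2), 5.82 ± 0.25 (SD, n = 3) and 2.61 ± 0.42 (SD, n = 3). Maf fell at least 3.25-fold in null against wild type (-2.14 ± 0.28, adjusted p = 0.0458), at least 6.84-fold against heterozygous (-3.22 ± 0.25, adjusted p = 0.00493) and at least 5.08-fold against all controls (-2.78 ± 0.37, adjusted p = 0.0207). The exact permutation p was 0.0357.

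The call of Maf against heterozygotes held in 15 of 16 alternative settings, the exception being the mean of all its probe sets (-0.64, adjusted p = 0.365). Of the 16, 3 were the same fit: only the groups compared, and without either wild-type mouse. Against wild type the call held in 3 of 16, with adjusted p from 0.0262 to 0.458. It was lost without any 1 heterozygote (0.100 to 0.126) and without null mouse 1 (0.0709) or 3 (0.0644). Without wild-type mouse 1 or 2 the difference was -1.98 or -2.30, each against 1 remaining wild-type mouse. Against all controls the call held in 9 of 15 and was lost without heterozygote 1 (0.0630), 2 (0.0544) or 3 (0.0745) or null mouse 1 (0.0534).

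Maf has 6 probe sets, which did not all give the same order. The 1437473_at probe set read 14.8 and 11.2 in wild type, 20.5, 17.0 and 18.9 in heterozygotes and 10.8, 8.13 and 9.72 in null mice. It repeated the order heterozygous, wild type, null without overlap, at a difference of -0.98 ± 0.18 from heterozygotes (adjusted p = 0.107) and -0.44 ± 0.20 from wild type (adjusted p = 0.685). The 1447945_at probe set went the other way, with 7.52 and 7.66 in wild type, 7.59, 8.77 and 6.77 in heterozygotes and 9.18, 11.5 and 10.4 in null mice (0.44 ± 0.17 against wild type, adjusted p = 0.595). Probe sets 1447849_s_at and 1435828_at read 75.9 and 30.5 in wild-type mouse 1 and no more than 6.17 in any other mouse. The last, 1444073_at, lay between 4.69 and 11.9 with overlap of all groups.

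**Figure D2:**
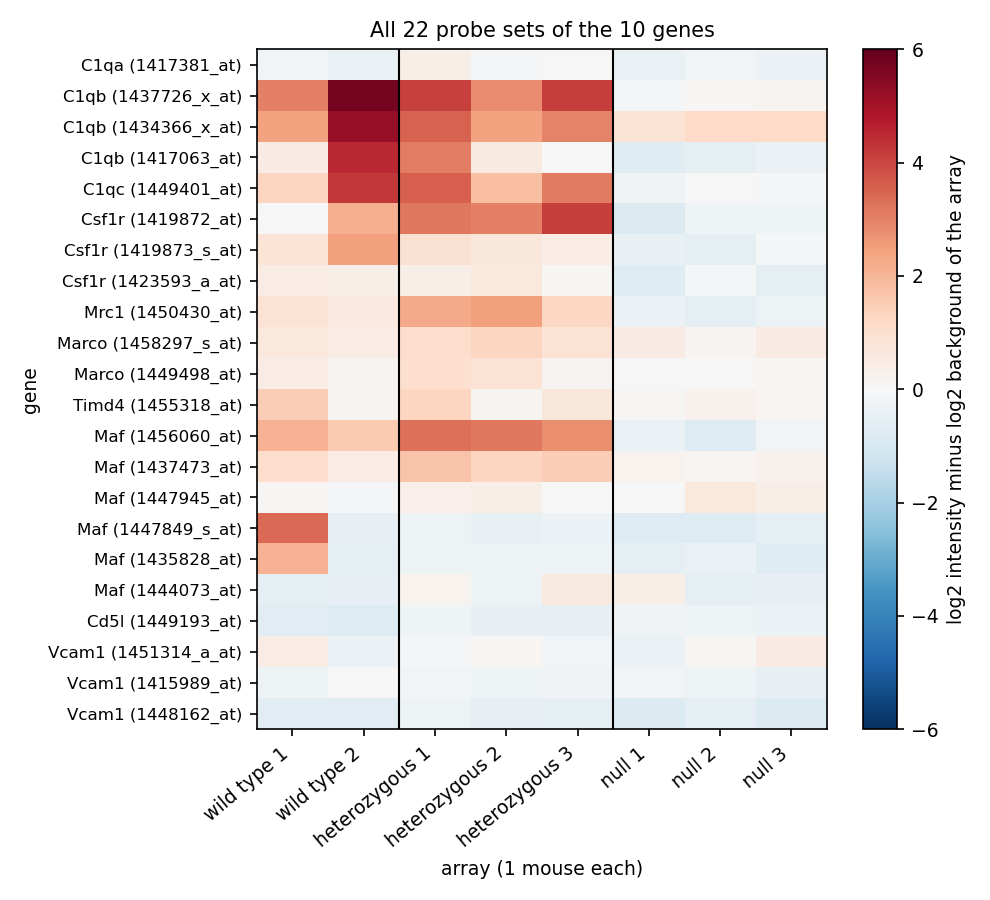
Log2 intensity minus the log2 background of the same array for all 22 probe sets (1 row each, gene with probe set name) in the 8 mice (columns, lines between groups). White is background level and red above it; null columns are near white or blue for C1qc, Csf1r, Mrc1 and C1qb except 1 C1qb probe set that stays light red, the strongest reds are in C1qb of wild-type mouse 2, and 2 Maf probe sets are red in wild-type mouse 1 alone.

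Csf1r encodes the receptor for CSF1 and IL-34, on which most tissue macrophages depend. Its brightest probe set read 6.87 and 36.5 in wild type, 55.9, 57.1 and 120 in heterozygotes and 5.20, 6.14 and 6.82 in null mice. Wild-type mouse 1 was at background and close to the null mice, while the 3 heterozygotes were the highest. Csf1r was at least 8.77-fold lower in null than in heterozygous mice (-3.59 ± 0.62, adjusted p = 0.0929). Its difference from wild type was -1.40 ± 0.69 (adjusted p = 0.723), with no lower bound on the fold because wild-type mouse 1 was itself at background. Only 5 of 18193 genes had a more negative difference from heterozygotes. In the fit of null and heterozygous mice alone the adjusted p was 0.0253. The difference from wild type was -0.19 without wild-type mouse 2 and -2.60 without wild-type mouse 1, each against 1 remaining mouse. Without wild-type mouse 1 the difference from all controls passed (-3.34, adjusted p = 0.0217).

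The other Csf1r probe sets placed wild type differently. The 1419873_s_at probe set read 12.6 and 44.3 in wild type, 11.7, 11.4 and 9.13 in heterozygotes and 6.89, 5.11 and 7.75 in null mice. The 1423593_a_at probe set read 9.77 and 10.2 in wild type, 7.84, 10.9 and 7.07 in heterozygotes and 5.65, 6.78 and 5.49 in null mice. On all 3 Csf1r probe sets the null mice were at background and below every control, but heterozygotes exceeded wild type on the brightest alone (2.20 ± 0.69, unadjusted p = 0.0163, adjusted p = 0.891), with differences of -1.15 ± 0.50 and -0.24 ± 0.22 on the others.

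Mrc1, the mannose receptor CD206 that takes up glycoproteins, read 13.1 and 12.4 in wild type, 30.2, 38.9 and 15.7 in heterozygotes and 7.40, 4.91 and 6.58 in null mice on its single probe set. Null mice were at background and the controls were not, with heterozygotes above wild type. Mrc1 was at least 3.20-fold lower in null than in heterozygous mice (-2.09 ± 0.35, adjusted p = 0.0835), at least 1.54-fold lower than in wild type (-1.04 ± 0.39, adjusted p = 0.578) and at least 2.39-fold lower than in all controls (-1.67 ± 0.42, adjusted p = 0.181). Without heterozygote 3, the lowest of its group, the comparison with heterozygotes passed (-2.47, adjusted p = 0.0386).

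The remaining phagocytic and adhesion genes were weak. Marco, a scavenger receptor that binds bacteria, read 10.9 and 10.9 in wild type, 12.8, 16.8 and 12.2 in heterozygotes and 13.0, 8.40 and 11.5 in null mice (null minus wild type -0.02 ± 0.23, adjusted p = 0.990). It was above background in every mouse and the groups overlapped. Its other probe set ranged from 7.42 to 12.9. Timd4, a receptor for phosphatidylserine on dying cells, read 19.5 and 9.11 in wild type, 15.1, 7.91 and 10.6 in heterozygotes and 9.73, 8.88 and 9.01 in null mice (-0.53 ± 0.38, adjusted p = 0.804). It too was above background in all mice, and wild-type mouse 1 and heterozygote 1 were the only high values. Vcam1, the adhesion molecule that holds erythroblasts in the island, read 9.51 and 6.38 in wild type, 5.93, 7.55 and 5.91 in heterozygotes and 6.94, 7.78 and 11.6 in null mice on its brightest probe set (0.13 ± 0.28, adjusted p = 0.934). The other 2 Vcam1 probe sets lay between 4.53 and 8.23.

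Cd5l, a secreted scavenger protein of tissue macrophages, read 4.53 and 4.73 in wild type, 5.23, 5.02 and 4.71 in heterozygotes and 8.01, 6.02 and 6.43 in null mice. All 8 values were at or below the background of their arrays, so the higher null values (0.55 ± 0.16, adjusted p = 0.426) give no level. Marco, Timd4, Vcam1 and Cd5l passed in no comparison with null, which does not show that the groups are equal in them.

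**Figure D3:**
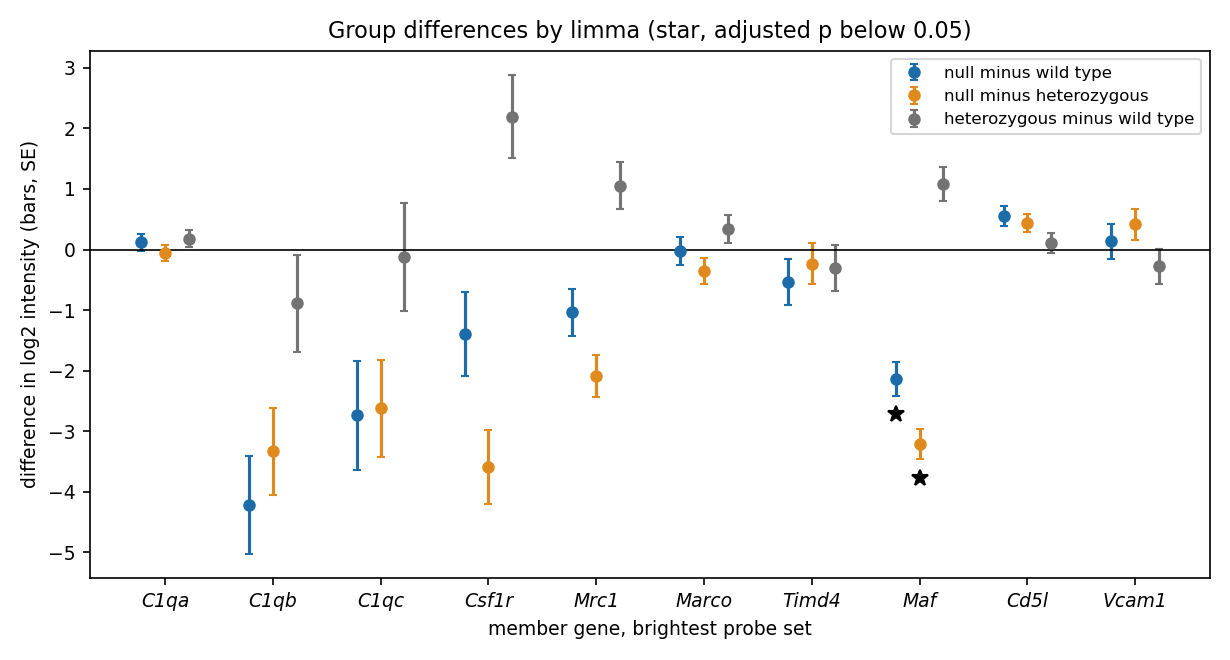
Difference in log2 intensity (vertical axis) of the brightest probe set of each gene in the 3 group comparisons, with bars of 1 limma standard error; stars mark an adjusted p below 0.05. Stars stand only at Maf, at -2.14 and -3.22, and the bars of C1qb and C1qc are wide, up to 0.89.

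Heterozygous and wild-type mice were compared in the same model. Of the 10 genes 0 passed, and by limma 0 of all genes (0.00%) and 1 of 45037 probe sets (0.00222%) did. At an unadjusted p below 0.05, 3 of 10 differed, against 5.90% of all genes, and all 3 were higher in heterozygotes. These were Maf (1.08 ± 0.28), Csf1r (2.20 ± 0.69) and Mrc1 (1.05 ± 0.39), with adjusted p of 0.821, 0.891 and 0.891 by limma. The difference in Csf1r was 0.99 without wild-type mouse 1 and 3.40 without wild-type mouse 2, each against 1 remaining wild-type mouse. C1qb (-0.89 ± 0.81, adjusted p = 0.917) and C1qc (-0.12 ± 0.89, adjusted p = 0.991) had wide errors, and the 2 wild-type mice were far apart in both. Without wild-type mouse 2 both were higher in heterozygotes, by 0.56 and 1.45, and without wild-type mouse 1 lower, by -2.34 and -1.69.

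Among the 8 arrays, C1qb and C1qc varied together: Pearson's r with the mean of the 3 centred C1q profiles was 0.99 for each of them, of which they are themselves part, and 0.03 for C1qa. It was 0.79 for Csf1r, 0.76 for Maf, 0.63 for Mrc1, 0.22 for Marco, 0.22 for Timd4, -0.63 for Vcam1 and -0.75 for Cd5l. The genes most like this mean among 13091 compared were Snx25 (0.98), Fancg (0.98), Cdc25c (0.97), Akr1c13 (0.97) and Pnkd (0.96). These values describe 8 arrays that fall into null and control mice, and they share each array's depth of signal and RNA quality. In Cdc25c, for example, wild-type mouse 2 was again the highest at 299, the other controls read 45.9 to 140 and the null mice 11.04 to 26.2.

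No complement gene on the lists, the C1q subunits included, passed the test in a comparison with null. Of 21 cascade proteins listed, from the C1 proteases to the terminal components, 15 were measured. Only 1 of these, Masp2, was above background on every array, and 4 were above it on none. Of the 15, 0 were called in any comparison with null, and the median difference from wild type was 0.07. Over all genes 0.126% to 0.379% fell in these comparisons, so 0 of 15 is near that share and does not show an unchanged cascade. C2, the protease that follows C1 in the classical pathway, read 6.04 and 6.93 in wild type, 5.69, 6.98 and 6.82 in heterozygotes and 93.8, 23.2 and 10.4 in null mice (2.13 ± 0.81 against wild type, adjusted p = 0.595). Its null mice were all above the controls but spread widely. Cfb, the matching protease of the alternative pathway, differed by 1.19 ± 0.71 (adjusted p = 0.768), Masp2, a lectin pathway protease, by -0.68 ± 0.68 (adjusted p = 0.856) and C8b, a subunit of the membrane attack complex, by 0.43 ± 0.26 (adjusted p = 0.769). Of 9 complement inhibitors 0 were called (median -0.12); the 4 with the largest differences from wild type were Clu (-0.997 ± 0.69), Cd55 (0.73 ± 0.26), Cr1l (-0.49 ± 0.41) and Cfi (-0.32 ± 0.14). Of 12 complement and C1q receptors 0 were called (median 0.01). Cd93, a receptor of endothelial and stem cells, differed by 2.04 ± 1.10 (adjusted p = 0.747) and Scarf1, a scavenger receptor that binds C1q, by 1.31 ± 0.62 (adjusted p = 0.703). Among the receptors C5ar1, which binds the C5a fragment, was lower in all null mice than in all controls (-1.06 ± 0.36 against wild type, adjusted p = 0.516), as was Calr, which encodes calreticulin (-0.92 ± 0.42, adjusted p = 0.695). These are 2 of 12 receptors, against 4.95% of all genes.

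Other macrophage genes were lower in part. Of 29 measured, 0 passed against wild type or heterozygous and 2 fell against all controls, Lyz2 and Sirpa. Over all genes 0.126%, 0.313% and 0.379% fell in these comparisons. Of the 29 differences from wild type 22 were below 0 and 7 above (median -0.38), where the median of all genes was -0.0001. In 5 of 29 every null mouse was lower than every control, against 4.95% of all genes. In 1 of 29, Gpnmb, every null mouse was higher, against 4.19% of all genes (0.43 ± 0.13 against controls, adjusted p = 0.264). Gpnmb was above background in 1 null mouse and 1 control. Fcgr1 too was higher than in wild type (1.01 ± 0.65, adjusted p = 0.788). Lyz2, the lysozyme of myeloid cells, read 151 and 214 in wild type, 191, 165 and 75.3 in heterozygotes and 27.6, 20.5 and 30.6 in null mice (-2.54 ± 0.34 against controls, adjusted p = 0.0207). The groups did not overlap. The call held in 6 of 15 alternatives and was lost without wild-type mouse 1 (0.0617), heterozygote 1 (0.0725) or 2 (0.0733) or null mouse 1 (0.0596). Sirpa, the receptor for the CD47 signal that blocks phagocytosis, differed from controls by -0.96 ± 0.15 (adjusted p = 0.0408), a call that held in 2 of 15 alternatives and was lost without any 1 array but null mouse 3 (0.0587 to 0.124). Ctss, a lysosomal protease, differed from wild type by -2.41 ± 0.33 (adjusted p = 0.0551), Tyrobp, the adaptor DAP12, by -2.25 ± 0.56 (adjusted p = 0.307) and Lyve1, a hyaluronan receptor, by -2.55 ± 0.82 (adjusted p = 0.478). Aif1, which encodes the actin-binding protein IBA1, read 217 in wild-type mouse 2 and 11.1 to 24.8 in the other controls, and Folr2, Axl and Msr1 were likewise highest in wild-type mouse 2, at 91.9, 97.0 and 84.5.

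The macrophage marker list of 15 genes, which includes the 10 described here, had a summed intensity of 214 and 727 in wild type, 309 to 432 in heterozygotes and 110 to 115 in null mice. C1qb alone made up 434 of the 727 in wild-type mouse 2. Of the 15, 3 were at or below background on all arrays: Cd5l, Adgre1, which encodes F4/80, and Cd163, the haemoglobin scavenger receptor. Cd68, a lysosomal marker, was above background in all 5 controls and in 0 null mice, at 6.99 to 15.7 in controls. Mertk was above background in 2 heterozygotes only, and Fcgr1 in 2 heterozygotes and 1 null mouse. These are bulk RNA samples, in which fewer cells of a type and less RNA per cell cannot be told apart.

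Among hepatocyte markers, 8 of 12 differences from wild type were below 0 and 4 above, and 0 passed limma's test in that comparison. At an unadjusted p under 0.05, 3 of 12 were lower, against 5.91% of all genes. Afp fell in null against heterozygous mice (-5.78 ± 0.75, adjusted p = 0.0354) and against controls (-5.11 ± 0.79, adjusted p = 0.0403), and Apoa2 fell against heterozygous mice (-3.32 ± 0.37, adjusted p = 0.0223). Over all genes 0.313% fell against heterozygotes and 0.379% against controls. Afp, the fetal serum albumin-like protein of hepatoblasts, read 75.9 and 321 in wild type, 617, 623 and 319 in heterozygotes and 22.9, 4.79 and 6.75 in null mice. The call of Afp against heterozygotes held in 8 of 16 alternatives, of which 3 were the same fit. It was lost without any 1 heterozygote or null mouse 2 or 3 (0.0502 to 0.169). Against controls it held in 5 of 15 and was lost without wild-type mouse 2, any 1 heterozygote or null mouse 2 or 3 (0.0608 to 0.122). Apoa2 kept its call in 11 of 16, of which again 3 were the same fit. It lost the call without heterozygote 1 or 3 or null mouse 1 or 3 (0.0557 to 0.119). The summed intensity of the list was 245 to 1154 in controls and 92.8 to 125 in null mice. Afp alone made up 617 of the 1154 in heterozygote 1. In 4 of 12 genes (Afp, Alb, Ttr and Apoa2) every null mouse was lower than every control, against 4.95% of all genes. The part of this in the C1q and macrophage values was not tested. Of the monocyte and granulocyte (13 genes), dendritic (10), erythroid (10), endothelial (9), stromal (10), B and T lymphoid (11), mast cell and megakaryocyte (9) and stem and progenitor (14) markers measured, 0 were called in any comparison with null. As 0.126% to 0.379% of all genes fell in these comparisons, 0 in lists this short is near the share of all genes.

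**Figure D4:**
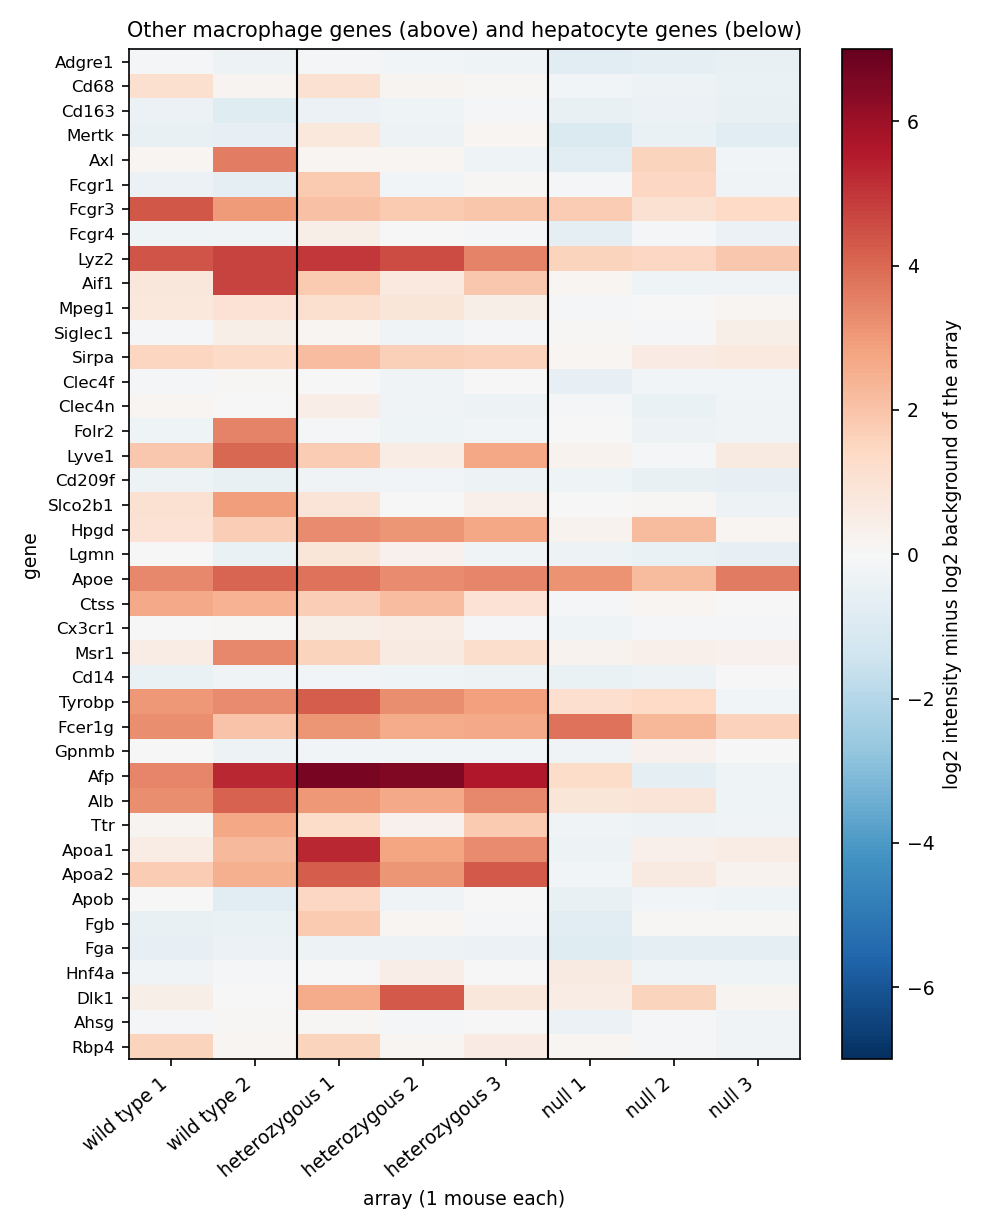
Log2 intensity minus the log2 background of the same array for 29 other macrophage genes (upper rows) and 12 hepatocyte genes (lower rows) in the 8 mice. Lyz2, Tyrobp, Afp and Alb are red in controls and pale in null mice, and Axl, Aif1, Folr2 and Msr1 are strongest in wild-type mouse 2.

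Genes around the members showed both directions. Of 14 genes of erythroblastic islands and iron recycling, 1 fell against controls, where 0.379% of all genes fell. This was Slc40a1, the iron exporter ferroportin (-1.74 ± 0.22, adjusted p = 0.0168). It read 35.8 and 44.7 in wild type, 56.5, 37.05 and 40.2 in heterozygotes and 10.5, 11.2 and 17.4 in null mice. The groups did not overlap, and the call held in 10 of 15 alternatives and was lost without heterozygote 3 (0.0591) or null mouse 1 (0.0531). Of 16 macrophage transcription factors, Spi1, which encodes PU.1, rose against heterozygotes (1.81 ± 0.24, adjusted p = 0.0384) and controls (1.60 ± 0.25, adjusted p = 0.0474). Spi1 read 17.6 and 17.2 in wild type, 13.2, 15.6 and 8.33 in heterozygotes and 46.2, 43.0 and 37.7 in null mice. Every null mouse was above every control, the reverse of Maf. The call against heterozygotes held in 5 of 16 alternatives and was lost without any 1 array (0.0552 to 0.150), and that against controls held in 6 of 15 and was lost without any 1 array but heterozygote 3 (0.0643 to 0.138). Of 12 genes of CSF1 receptor ligands and signalling, Csf2rb, the shared chain of the IL-3, IL-5 and GM-CSF receptors, rose against wild type (4.31 ± 0.48, adjusted p = 0.0254), heterozygotes (4.31 ± 0.43, adjusted p = 0.0136) and controls (4.31 ± 0.36, adjusted p = 0.00207). Csf2rb read 6.51 and 11.6 in wild type, 6.48, 7.89 and 12.7 in heterozygotes and 121, 145 and 291 in null mice. Its call against wild type was lost without any 1 heterozygote (0.0571 to 0.0779). Without wild-type mouse 1 or 2 the difference was 3.89 or 4.73, each against 1 remaining mouse. The call against heterozygotes was lost without heterozygote 1 (0.0800) or 2 (0.0783), while that against controls held in 15 of 15 alternatives. Over all 45037 probe sets, 147 were called in either direction against wild type, 226 against heterozygotes and 262 against controls. The share of genes that rose is not given separately, so the rises of Spi1 and Csf2rb describe single genes of their lists. Of 14 integrin and scavenger partners of the members, 0 were called. The largest differences from wild type among them were in Scarb1 (-2.01 ± 1.05), Itgb7 (0.85 ± 0.64), Stab1 (-0.81 ± 0.45) and Itga4 (-0.73 ± 0.63).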

How the data were processed

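Messenger RNA of sorted fetal liver cells was measured on 8 arrays. Per the labels' protocols RNA was isolated with a Qiagen kit and labelled with biotin through a Nugen kit. The values are linear intensities per probe set as deposited by the authors, and per the submitters' processing notes RMA was used; its version is not given in the sources used here. Log2 was taken of the intensities as deposited, with no pseudocount. The arrays as deposited did not share 1 distribution. The upper quartile of log2 intensity was 4.20 to 4.51 in control and 3.98, 4.40 and 4.01 in null mice. As controls 64 of 45101 probe sets were left out, and 0 per-sample columns were unused.

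The members and gene lists were chosen with earlier results of these data known. Each gene was represented by the probe set, among those naming it alone, with the highest mean log2 over 8 arrays. limma 3.58.1 on R 4.3.3 (lmFit, eBayes without trend) fitted 3 groups with 5 residual degrees of freedom, and null against all controls with 6. Tests were two-sided. Exact permutation over 56 splits of 3 and 5 arrays used scipy 1.17.1 and is given unadjusted; 3 arrays against 2 or 3 cannot go below 0.1. Of each list, genes past the threshold are named, and in lists without one the 4 with the largest difference from wild type; others were named after their values were seen. Motifs were searched in RefSeq promoters (GRCm38.p6). The fit was tested on simulated data. Alternatives were a pseudocount of 32, quantile and cyclic loess normalization, a filter for signal above background on 2 or more arrays, the mean of a gene's probe sets, array weights, a fit of only the groups compared, a variance trend and each array left out. Leaving out 1 wild-type mouse leaves a single mouse in that group, so fits against wild type then give a difference only. Against heterozygotes, leaving out either wild-type mouse gave the same fit as only the groups compared. Counts of alternatives against heterozygotes hold that fit 3 times. Replicate numbers follow the order of deposit and pair nothing. The 8 arrays are separate mice.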

Additional observations from a re-analysis of the deposited data

Results flagged for a closer look

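Each of the 22 probe sets was checked for a control mouse standing apart from the other 4, by the gap to the nearest of the others over the whole range, with a critical value of 0.71 for 5 arrays. Chance gives about 1 such result in 20, and 4 of 22 were found. Csf1r (1419873_s_at) was highest in wild-type mouse 2, at 44.3, with a ratio of 0.795. Maf was highest in wild-type mouse 1 on 1447849_s_at, at 75.9 and a ratio of 0.948, and on 1435828_at, at 30.5 and a ratio of 0.935. Vcam1 (1415989_at) was highest in wild-type mouse 2, at 8.198, with a ratio of 0.894. These are secondary probe sets of their genes.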

How the results depend on the processing

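Probe sets called among the members' 22 in null against wild type (1, of Maf) ranged from 0 to 1 with a heterozygous or null array left out. They became 0 with the pseudocount of 32, cyclic loess, the mean of probe sets and array weights. In a fit of only the groups compared and with a variance trend they were 0 too. Against heterozygotes (1) they became 3 in the fit of only the groups compared and ranged from 1 to 3. In heterozygous against wild type (0) they stayed 0 with a heterozygous or null array left out. Against all controls (1) they became 0 with the pseudocount and the mean of probe sets, 2 with the filter and with the variance trend, and ranged from 0 to 2. The cause was not tested. With the pseudocount, which shrinks differences between low values, the C1q median was -1.26, -1.04 and -1.13 against wild type, heterozygotes and controls. With the mean of probe sets the C1q median was -2.12 against heterozygotes. Leaving arrays out, it ranged from -4.31 to -1.17 against wild type, and from -1.69 to 0.56 in heterozygous against wild type.

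No called difference changed sign; these uncalled ones did. Against wild type, Marco was 0.0877 with quantile and 0.0693 with cyclic loess normalization, and with arrays left out Marco ranged from -0.15 to 0.16, Timd4 from -1.08 to 0.0133 and Vcam1 from -0.15 to 0.42. Against heterozygotes, C1qa ranged from -0.125 to 0.0275 and Timd4 from -0.46 to 0.0041. In heterozygous against wild type, Maf was -0.19 with the mean of probe sets, and C1qb ranged from -2.34 to 0.56, C1qc from -1.69 to 1.45, Timd4 from -0.85 to 0.25 and Vcam1 from -0.57 to 0.0081. Against controls, C1qa was -0.0504 with quantile, -0.0673 with cyclic loess and -0.0263 with array weights, and ranged from -0.0246 to 0.0716 with arrays left out.

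Over all probe sets, calls against wild type (147) became 62 with the pseudocount and 90 with array weights. They were 4 with only the groups compared and 95 with the trend, and 65 to 239 with a heterozygous or null array left out. Calls against heterozygotes (226) became 126 with the pseudocount and 140 with the trend and ranged from 63 to 581. In heterozygous against wild type (1) they were 0 to 5 in the other settings and 0 with a heterozygous or null array left out. Against controls (262) they ranged from 156 to 792. Signal near background limits C1qa, Cd5l and Vcam1. No paired analysis was possible because replicate numbers follow the order of deposit.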
